A study of Sus scrofa with 2 samples.

Results

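The 4 islet hormone genes INS, GCG, SST and PPY and 5 genes of prohormone processing and the secretory granule, PCSK1, PCSK2, CPE, CHGA and SCG2, were followed by single-nucleus RNA sequencing of pig pancreas. They were chosen by symbol, and each of the 9 symbols matched 1 of the 31908 genes in the count matrices. Every endocrine nucleus type was measured in 1 library from a wild-type (WT) Bama pig and 1 library from a transgenic PIGinH11 Bama pig. The PIGinH11 pig carried GIPRdn (a dominant-negative receptor for the incretin GIP), hIAPP (human islet amyloid polypeptide) and the PNPLA3 I148M variant, knocked into the H11 locus under promoters specific to the beta cell or the liver. Both pigs were 18 months old and had eaten control diet until 6 months of age and then a high-fat and high-sucrose diet (HFHSD) for 12 months. One piece from the body of the pancreas of 1 animal stands behind each library, so there was no measure of how animals differ, no test between the groups was made, and the intervals given are exact 95% intervals that cover counting error only.

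Peptide hormones are made as longer precursors. The signal peptide is removed in the endoplasmic reticulum, the prohormone convertases PC1/3 (PCSK1) and PC2 (PCSK2) then cut at pairs of basic residues in the maturing granule, and carboxypeptidase E (CPE) trims the basic residues left behind. Beta cells use both convertases to turn proinsulin into insulin and C-peptide, whereas alpha cells rely on PC2 to cut proglucagon to glucagon, and the granins chromogranin A (CHGA) and secretogranin II (SCG2) help to build the dense-core granule and are themselves cut into peptides.

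Reads were counted as unique molecular identifiers (UMIs), 1 per captured RNA molecule. The libraries differed in depth, with a median of 3216 UMIs per barcode in 13619 WT barcodes and 1181.5 UMIs in 14964 PIGinH11 barcodes, and 60 barcode sequences occurred in both. After filtering, 24980 nuclei were left, of which 805 were endocrine (281 WT and 524 PIGinH11). The endocrine nuclei were clustered again without the 9 genes and named from other markers, which gave 69 and 82 alpha-like, 131 and 136 beta-like, 30 and 69 delta-like and 6 and 49 gamma-like nuclei in WT and PIGinH11, while 45 and 188 stayed unnamed. UMIs of acinar markers were found in all of them. The 8 acinar naming markers together made 828 and 962 CPM (UMIs scaled to a class total of 1000000) in beta-like nuclei, 1402 and 1766 CPM in alpha-like, 1757 and 3653 CPM in delta-like and 5748 and 5765 CPM in gamma-like nuclei of WT and PIGinH11, compared with 18353 and 16712 CPM in acinar-like nuclei. The defining acinar markers were therefore not at 0 in any endocrine class, and their part in the results was not tested.

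Each hormone was highest in the class for which it is known, in both libraries. None of the 4 was itself used to form or name the classes. Many naming markers, however, came from the study's own cluster genes, which were chosen on these libraries. The study had annotated its endocrine clusters by these hormones, so the ranking is no independent check of the names. INS, the insulin gene (ENSSSCG00000033740, Sscrofa11.1 chromosome 2, 1496842 to 1498052), stood at 8448 CPM in WT and 5026 CPM in PIGinH11 beta-like nuclei. GCG, which encodes proglucagon (ENSSSCG00000015895, chromosome 15, 68800557 to 68810268), stood at 3964 and 3162 CPM in alpha-like nuclei. SST, the somatostatin gene (ENSSSCG00000033815, chromosome 13, 125337560 to 125338742), stood at 2092 and 2193 CPM in delta-like nuclei. Each of these 3 classes, named from other markers, thus held the hormone known for it at a higher level than the other classes did.

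PPY, which encodes pancreatic polypeptide (ENSSSCG00000017368, chromosome 12, 19217649 to 19218680), reached 6459 CPM in WT and 3204 CPM in PIGinH11 gamma-like nuclei. Its level there came from very few nuclei. In WT, 1 nucleus held 204 of the 227 PPY UMIs of the class, and without it the level was 918 CPM. In PIGinH11, 1 nucleus held 150 of 284 PPY UMIs, and without it the level was 1696 CPM. PPY was seen in 5 of 6 WT and in 23 of 49 PIGinH11 gamma-like nuclei, so 26 nuclei of the class in PIGinH11 held no PPY UMI.

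**Figure D1:**
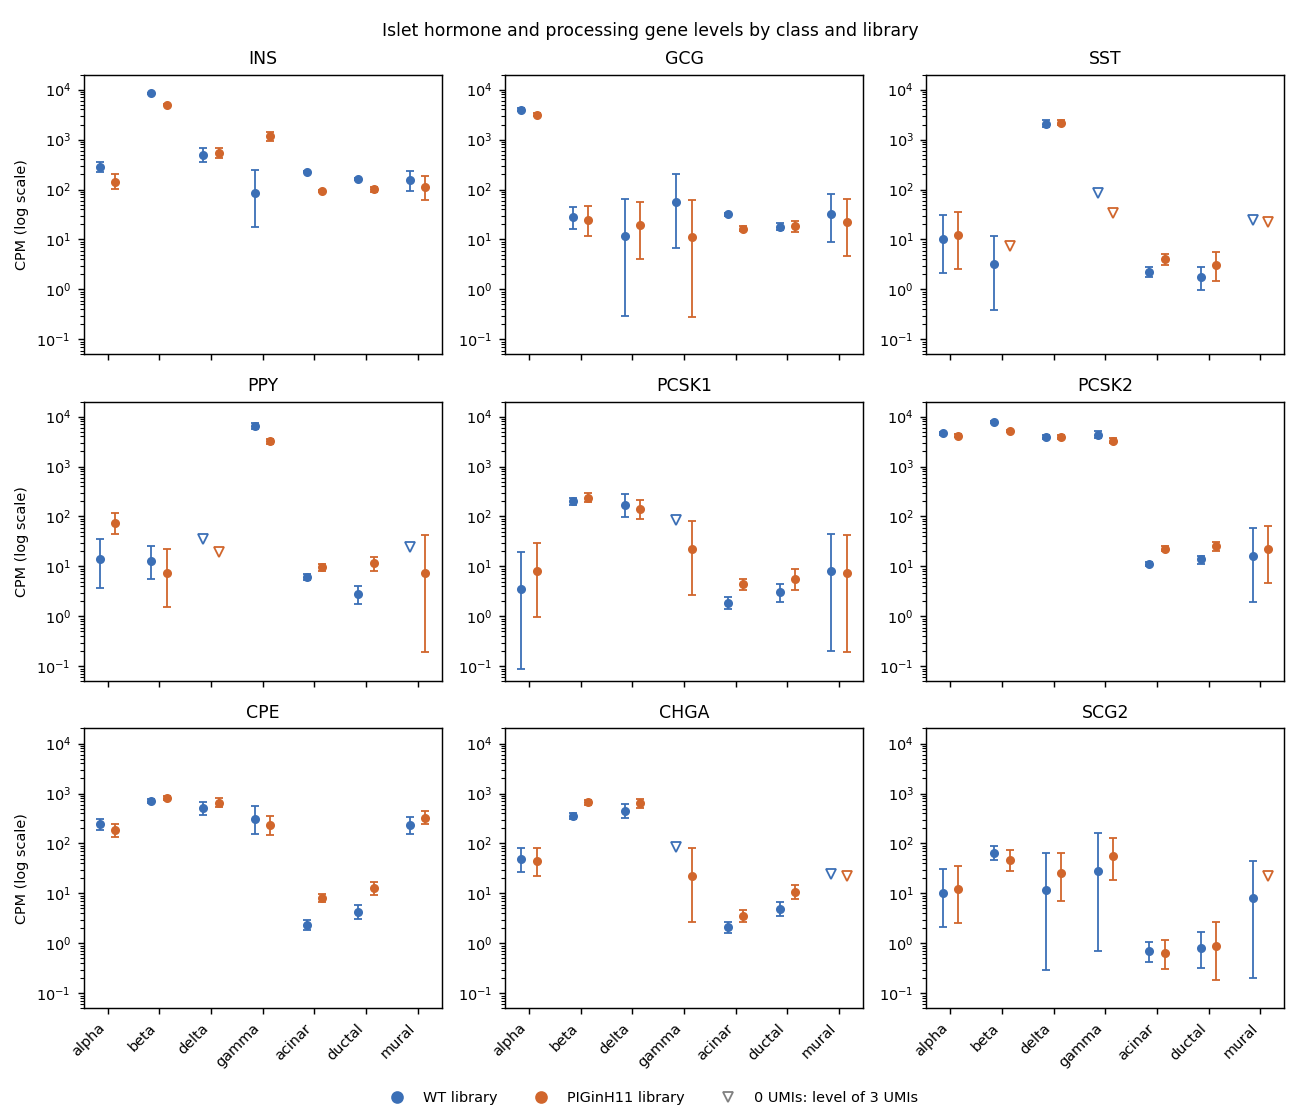
Level of each gene (CPM, UMIs scaled to a class total of 1000000, log axis) in 4 endocrine classes and in acinar-like, ductal-like and mural-like nuclei, with WT in blue and PIGinH11 in orange. Points are sums over the nuclei of 1 library with exact Poisson 95% intervals, open triangles mark 0 UMIs at the level that 3 UMIs would give, and PCSK2 lies between 3272 and 7748 CPM in all 4 endocrine classes while PCSK1 and CHGA are high in beta-like and delta-like nuclei.

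UMIs of the hormones were also found in acinar-like nuclei, and their source was not tested. The share of nuclei with at least 1 INS UMI was 99.2% in WT and 94.1% in PIGinH11 beta-like nuclei, at median depths of 4209 and 2182.5 UMIs. In acinar-like nuclei it was 44.7% and 13.1% at median depths of 2848.5 and 1202 UMIs, and the INS level there was 225 and 93.2 CPM. With every nucleus thinned to 500 UMIs, the beta-like shares were 86.3% and 76.5% and the acinar-like shares 13.1% and 6.02%. One WT acinar-like nucleus held 739 of the 6810 INS UMIs of the class, and 38 WT and 9 PIGinH11 acinar-like nuclei were rich in INS, meaning 5 or more UMIs that also made 10 or more per 10000 of the nucleus. Without those nuclei the level was 182 and 88.3 CPM.

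In alpha-like nuclei INS was 1.27 times (interval 1.01 to 1.57) the acinar-like level in WT and 1.54 times (1.07 to 2.16) in PIGinH11. It made 285 CPM (82 UMIs, exact interval 227 to 354) in WT and 144 CPM (35 UMIs, 100.1 to 199.9) in PIGinH11, and 65.2% and 28.0% of the nuclei had a UMI. At 500 UMIs the shares were 8.70% and 11.0%, below the acinar-like share in WT and above it in PIGinH11. No WT alpha-like nucleus held more than 4 INS UMIs, and 1 PIGinH11 nucleus held 7.

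In delta-like nuclei INS stood above the acinar level in both libraries, at 497 CPM (43 UMIs, 360 to 669) and 547 CPM (85 UMIs, 437 to 676). Few nuclei carried a large part of it, since 3 nuclei held 21 of the 43 UMIs in WT and 50 of the 85 in PIGinH11. In gamma-like nuclei, WT held 3 INS UMIs in all and PIGinH11 held 102, of which 60 were in 1 nucleus and 93 in 3.

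The other hormones were found in acinar-like nuclei too. GCG made 31.9 and 16.5 CPM there, SST 2.25 and 4.06 CPM and PPY 6.09 and 9.59 CPM in WT and PIGinH11. One WT acinar-like nucleus held 270 of the 964 GCG UMIs, and without it the level was 23.0 CPM. GCG in beta-like nuclei was 27.5 and 25.0 CPM. No SST UMI was found in the PIGinH11 beta-like nuclei, where 3 UMIs would make 7.50 CPM, and none in the gamma-like nuclei of either library. PPY was absent among the UMIs of delta-like nuclei of both libraries, where 3 UMIs would make 34.7 CPM in WT and 19.3 CPM in PIGinH11.

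The make-up of the hormone RNA set acinar-like nuclei apart from each endocrine class. INS made 84.8% (exact interval 84.0 to 85.6) of the hormone UMIs in WT and 75.6% (73.6 to 77.5) in PIGinH11 acinar-like nuclei, and 87.9% and 75.3% in ductal-like nuclei. In beta-like nuclei it made 99.5% and 99.4%, in alpha-like 6.68% and 4.24%, and in delta-like 19.1% and 19.8%. For every 100 INS UMIs there were 91.7 PCSK2 UMIs in WT beta-like and 4.99 in WT acinar-like nuclei, and 101 and 24.3 in PIGinH11. INS and PCSK2 therefore did not keep 1 ratio between the nuclei of a library. Of all INS UMIs in retained nuclei, 38.2% in WT and 52.6% in PIGinH11 were in endocrine nuclei, compared with 93.2% and 88.8% of the PCSK2 UMIs.

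**Figure D2:**
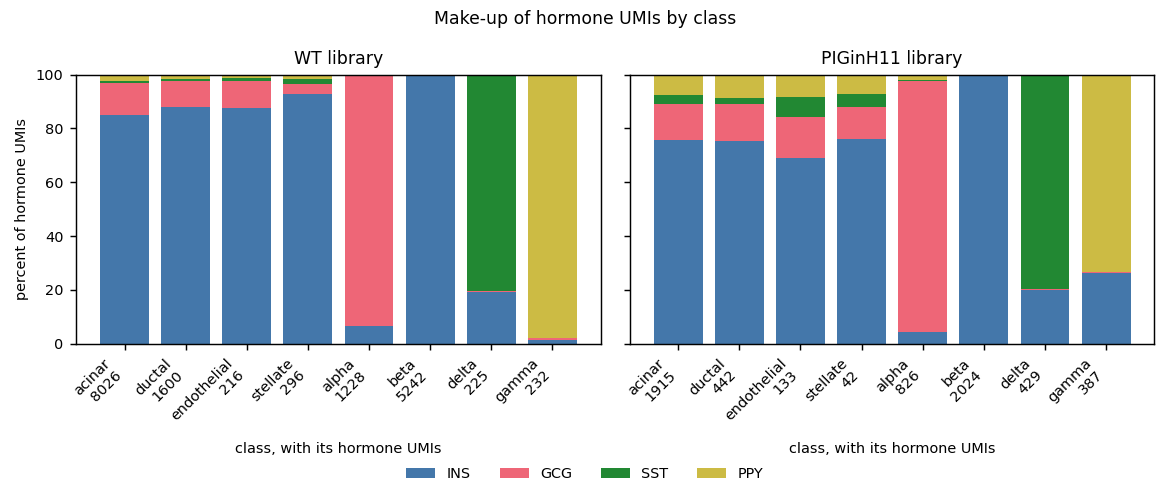
Share of the summed INS, GCG, SST and PPY UMIs (percent, vertical axis) that each hormone made in 8 classes of the WT library (left) and the PIGinH11 library (right), with the number of hormone UMIs under each class name. INS makes 84.8% and 75.6% of the hormone UMIs in acinar-like nuclei and 1.29% and 26.4% in gamma-like nuclei.

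Few nuclei were rich in 2 hormones, but many endocrine nuclei were rich in none. The threshold for rich, given with INS in acinar-like nuclei, was set after the values had been seen. No beta-like nucleus of either library (0 of 131 and 0 of 136, allowing up to 2.78% and 2.68% by the exact binomial interval) was rich in a second hormone. Rich in both INS and SST were 2 of 30 WT and 2 of 69 PIGinH11 delta-like nuclei. Only 10 of these WT and 13 of these PIGinH11 nuclei were rich in SST, and 20 and 53 were rich in no hormone. Among PIGinH11 nuclei, 1 alpha-like nucleus was rich in INS and GCG, 1 in GCG and PPY, and 2 gamma-like nuclei in INS and PPY. Of the 49 PIGinH11 gamma-like nuclei, 5 were rich in PPY and 44 in no hormone. The threshold depends on depth, so shares of all nuclei understate how often a hormone-rich nucleus was rich in a second. One WT acinar-like nucleus of 8436 and 1 unnamed WT endocrine nucleus were also rich in INS and GCG. Whether such barcodes held 1 nucleus or 2 was not tested beyond the doublet filter.

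PCSK1, which encodes the convertase PC1/3 (ENSSSCG00000014169, chromosome 2, 103004794 to 103050707), was highest in beta-like and delta-like nuclei among the 4 endocrine classes. Beta-like nuclei held 124 UMIs in WT and 95 in PIGinH11 (201 and 237 CPM), and delta-like nuclei held 15 and 22 UMIs (173 and 141 CPM). The beta-like level was 1.16 times (interval 0.676 to 2.13) the delta-like level in WT and 1.68 times (1.05 to 2.80) in PIGinH11. Alpha-like nuclei held 1 and 2 UMIs, so that the beta-like level was 57.7 times (interval 10.2 to 2298) that of alpha-like nuclei in WT and 28.9 times (7.79 to 242) in PIGinH11. Gamma-like nuclei held 0 PCSK1 UMIs in WT, where 3 UMIs would make 85.4 CPM, and 2 in PIGinH11. The level in acinar-like nuclei was 1.85 and 4.38 CPM, from 56 and 68 UMIs. Of all PCSK1 UMIs in retained nuclei, 61.6% in WT and 57.9% in PIGinH11 were in endocrine nuclei.

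PCSK1 was seen in 46.6% of WT and 36.0% of PIGinH11 beta-like nuclei, and with nuclei thinned to 500 UMIs in 10.7% and 11.8%. At this depth a nucleus without a PCSK1 UMI cannot be taken as one without the transcript.

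PCSK2, which encodes the convertase PC2 (ENSSSCG00000007083, chromosome 17, 25681424 to 25920690), was abundant in all 4 endocrine classes. Its level was 7748 and 5096 CPM in beta-like, 4583 and 4118 CPM in alpha-like, 3918 and 3916 CPM in delta-like and 4354 and 3272 CPM in gamma-like nuclei of WT and PIGinH11. Beta-like nuclei were highest in both libraries, 1.69 times (interval 1.59 to 1.80) the alpha-like level in WT and 1.24 times (1.15 to 1.34) in PIGinH11. Delta-like nuclei held 0.855 times (0.756 to 0.964) the alpha-like level in WT and 0.951 times (0.858 to 1.05) in PIGinH11. Gamma-like nuclei held 0.95 times (0.798 to 1.12) and 0.794 times (0.695 to 0.906) the alpha-like level. In WT 1 of the 6 gamma-like nuclei held 76 of the 153 PCSK2 UMIs of its class, and without it the gamma-like level was 3341 CPM. In acinar-like nuclei PCSK2 made 11.3 and 22.6 CPM, and 3.77% and 3.56% of the nuclei had a UMI.

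From nucleus to nucleus PCSK2 varied less than INS. It was found in 130 of 131 WT and 129 of 136 PIGinH11 beta-like nuclei. Its median over nuclei was 71.6 UMIs per 10000 in WT (10th to 90th percentile 44.4 to 114) and 48.4 in PIGinH11 (16.5 to 87.9). INS spread more widely across the same nuclei, with a median of 45.8 per 10000 in WT (14.6 to 162, highest 528) and 33.9 in PIGinH11 (8.14 to 95.7, highest 473). One nucleus held 506 of the 5215 INS UMIs of WT beta-like nuclei, and 1 held 250 of the 2011 of PIGinH11.

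CPE, which trims basic residues from the cut peptides (ENSSSCG00000008854, chromosome 8, 43568744 to 43695475), had a graded pattern. It stood at 697 and 817 CPM in beta-like and at 509 and 656 CPM in delta-like nuclei, and lower in gamma-like (313 and 237 CPM) and alpha-like nuclei (244 and 185 CPM). Beta-like nuclei held 2.86 times (interval 2.22 to 3.74) the alpha-like level in WT and 4.42 times (3.23 to 6.18) in PIGinH11, and delta-like nuclei 2.09 times (1.40 to 3.09) and 3.55 times (2.48 to 5.16). The beta-like level was 1.37 times (1.00 to 1.91) the delta-like level in WT and 1.25 times (0.995 to 1.57) in PIGinH11.

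CPE was also found in a class outside the islet. Mural-like nuclei, named from pericyte and smooth muscle markers, held 233 CPM (29 UMIs in 37 nuclei, interval 156 to 335) in WT and 331 CPM (44 UMIs in 79 nuclei, 240 to 444) in PIGinH11. One WT nucleus held 16 of the 29 UMIs, and without it the level was 111 CPM, while the richest PIGinH11 nucleus held 5 of 44, and without it the level was 308 CPM. PCSK2 in the same nuclei was 16.1 and 22.6 CPM, compared with 11.3 and 22.6 CPM in acinar-like nuclei. Stellate-like nuclei held 39.4 and 28.4 CPM of CPE, and acinar-like nuclei 2.38 and 8.05 CPM.

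CHGA (ENSSSCG00000002456, chromosome 7, 114345542 to 114357799) followed the split of PCSK1 between classes. It stood at 348 CPM (215 UMIs) in WT and 672 CPM (269 UMIs) in PIGinH11 beta-like nuclei, and at 451 CPM (39 UMIs) and 643 CPM (100 UMIs) in delta-like nuclei. The beta-like level was 0.773 times (0.547 to 1.12) the delta-like level in WT and 1.05 times (0.828 to 1.33) in PIGinH11. Alpha-like nuclei held 48.7 and 45.2 CPM, and the delta-like level was 9.25 times (interval 4.91 to 18.4) the alpha-like level in WT and 14.2 times (7.62 to 29.4) in PIGinH11. Gamma-like nuclei held 0 CHGA UMIs in WT, which allows up to 85.4 CPM, and 2 UMIs in PIGinH11 (22.6 CPM). SCG2 (ENSSSCG00000023032, chromosome 15, 125420773 to 125426303) was sparse, with 40 UMIs in WT and 19 in PIGinH11 beta-like nuclei (64.8 and 47.5 CPM) and at most 5 in any other named endocrine class of a library, so its order among the classes could not be set.

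Of the convertases, CPE and its hormone, all were seen together in 56 of 131 WT (42.7%, exact interval 34.1 to 51.7) and 42 of 136 PIGinH11 beta-like nuclei (30.9%, 23.2 to 39.4). With nuclei of at least 1000 UMIs thinned to 1000, the shares were 7.75% and 8.26%. In alpha-like nuclei GCG, PCSK2 and CPE were seen together in 25 of 69 WT and 24 of 82 PIGinH11 nuclei.

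The 2 libraries were then compared class by class. Genes with 20 or more UMIs in a class were measured, and a gene was counted as lower or higher when the PIGinH11 level was past a 2-fold difference from WT. Over all 6936 genes so measured in beta-like nuclei, 6% were at least 2-fold lower and 6.93% at least 2-fold higher in PIGinH11. Of the 9 genes 7 were measured there, and 0 were past 2-fold in either direction. The 5 of them that reached 20 UMIs in both libraries had a median log2 ratio of 0.23, beside 0.10 for all 3726 genes that did so.

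In beta-like nuclei INS and CHGA differed in opposite directions. The granin SCG2 did not share the direction of CHGA, at a log2 ratio of −0.45 with an interval that held 0 (−1.32 to 0.37). INS was 8448 CPM in WT and 5026 CPM in PIGinH11, a log2 ratio of −0.75 (exact interval −0.82 to −0.67). CHGA was 348 and 672 CPM, a log2 ratio of 0.95 (0.68 to 1.21). Among all genes measured in the class these stood at percentiles 9.98 and 92.4. The ranking takes in genes with few UMIs, whose counting intervals are wide. GCG, with 17 UMIs in WT and 10 in PIGinH11 beta-like nuclei, had an interval of −1.43 to 1.07. The percentiles therefore cannot show whether the INS or CHGA difference is unusual for a gene with as many UMIs.

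PCSK2 in beta-like nuclei was 7748 CPM in WT and 5096 CPM in PIGinH11, a log2 ratio of −0.60 (−0.68 to −0.53) at percentile 13.8. CPE was 697 and 817 CPM (log2 0.23, 0.02 to 0.44), and PCSK1 201 and 237 CPM (0.24, −0.16 to 0.64). SCG2, at 64.8 and 47.5 CPM, had a log2 ratio of −0.45 (−1.32 to 0.37). The intervals of PCSK1 and SCG2 held 0, and a difference between the 2 libraries was not detectable for them at this depth. RNA of 19 listed digestive enzyme genes differed more, at 30442 CPM in WT and 5701 CPM in PIGinH11 beta-like nuclei. Its own part in these ratios was not tested. An alternative that left enzyme, ribosomal and mitochondrial genes together out of the denominator gave −0.79 for INS.

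**Figure D3:**
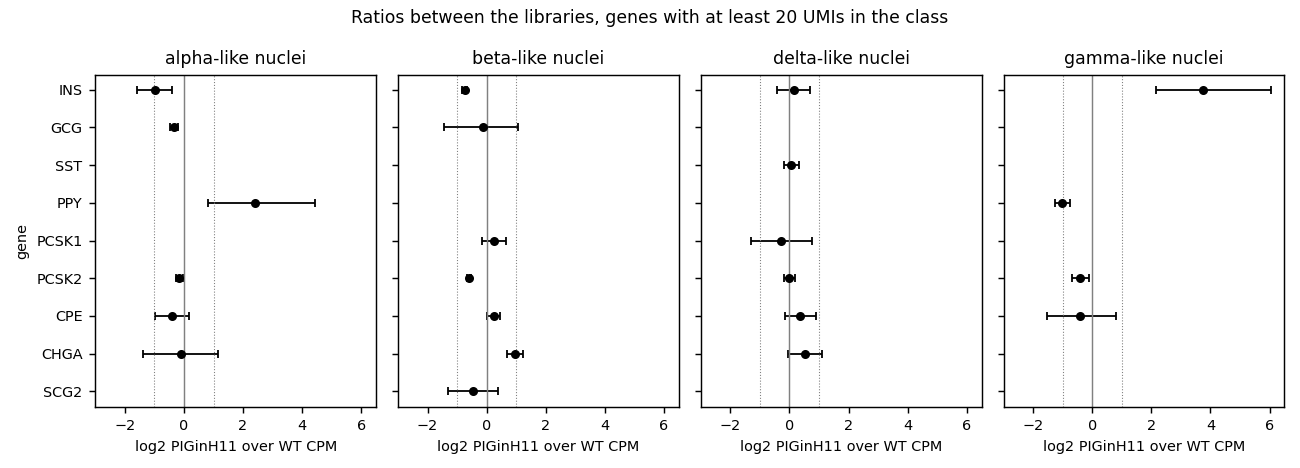
Log2 ratio of PIGinH11 over WT (horizontal axis) for each gene with 20 or more UMIs in alpha-like, beta-like, delta-like and gamma-like nuclei, with exact conditional binomial 95% intervals that cover counting error only. Dotted lines mark 2-fold, which only PPY in alpha-like and gamma-like nuclei and INS in gamma-like nuclei lie beyond.

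In alpha-like nuclei 6.8% of 4733 genes were at least 2-fold lower and 6.32% at least 2-fold higher in PIGinH11, and of the 6 listed genes measured 0 were lower and 1, PPY, was higher. PPY rested on 4 UMIs in WT and 18 in PIGinH11 (13.9 and 73.9 CPM, log2 2.41, 0.81 to 4.43). Of the 18 UMIs 17 were in 1 nucleus, and without the richest nucleus of each library the log2 ratio was −1.35. That value rested on 3 UMIs in WT and 1 in PIGinH11, too few to set a direction.

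GCG was 3964 CPM in WT and 3162 CPM in PIGinH11 alpha-like nuclei, a log2 ratio of −0.33 (−0.46 to −0.19). One WT nucleus held 287 of the 1139 GCG UMIs, and without the richest nucleus of each library the ratio was −0.05. As a mean over nuclei it was 0.16, and the median nucleus held 17.0 GCG UMIs per 10000 in WT and 24.2 in PIGinH11. The direction of the GCG difference therefore turned with the way nuclei were weighted.

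PCSK2 in alpha-like nuclei had a log2 ratio of −0.15 (−0.27 to −0.03), and CPE (−0.40, −0.97 to 0.16) and CHGA (−0.11) had intervals that held 0. INS stood just inside 2-fold, at −0.99 (−1.60 to −0.40) and percentile 6.89. With the mean INS UMIs per nucleus of the pooled acinar-like and ductal-like nuclei subtracted as free RNA, the value was −0.13.

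In delta-like nuclei 6.45% of 2696 genes were at least 2-fold lower and 12.3% at least 2-fold higher, and 0 of the 6 listed genes measured were past 2-fold in either direction. SST was 2092 CPM in WT and 2193 CPM in PIGinH11 (log2 0.07, −0.20 to 0.34), and PCSK2 3918 and 3916 CPM. CHGA (0.51, −0.03 to 1.09), CPE (0.37, −0.16 to 0.91), PCSK1 (−0.29) and INS (0.14) all had intervals that held 0. No difference between the libraries was detectable at this depth for any of the 6.

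In gamma-like nuclei the WT library had 6 nuclei, and 9.12% of 1403 genes were at least 2-fold lower and 16.7% at least 2-fold higher in PIGinH11. Of the 4 listed genes measured, PPY was past 2-fold lower (log2 −1.01, −1.27 to −0.75) and INS past 2-fold higher (3.75, 2.16 to 6.05). Without the richest nucleus of each library PPY was at 0.89, in the opposite direction. PCSK2 was at −0.41 (−0.70 to −0.12) and CPE at −0.40, and the median of the genes that reached 20 UMIs in both libraries was itself −0.33 in this class.

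The relation between a hormone and its processing genes was examined within the nuclei of 1 library, by splitting each class at the median level of its own hormone and comparing the summed levels of the other genes, with the 9 genes left out of the denominator. Classes with fewer than 40 nuclei in a library were not split. These nuclei share a library and are not replicates, so the values are descriptions of 1 animal each.

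Beta-like nuclei rich and poor in INS had nearly the same PCSK2 level. In WT, the 65 INS-high nuclei held 12662 CPM of INS and the 66 INS-low nuclei 2970 CPM, while PCSK2 was 7929 and 7827 CPM, a log2 difference of 0.02 (−0.06 to 0.10). In PIGinH11, INS was 8063 and 2015 CPM in 68 INS-high and 68 INS-low nuclei, and PCSK2 was 4930 and 5392 CPM, a log2 difference of −0.13 (−0.26 to −0.00). Spearman's rho of INS with PCSK2 over single nuclei was −0.01 in 131 WT and −0.02 in 136 PIGinH11 nuclei, compared with medians of 0.06 and 0.03 for all genes found in at least 20% of the nuclei. The INS-high nuclei were deeper, with median UMIs of 4953 against 3196.5 in WT and 2326 against 2067 in PIGinH11. Intron reads were counted, and PCSK2 spans 239267 bases where INS spans 1211. The part of intron reads in the UMIs of either gene was not tested.

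**Figure D4:**
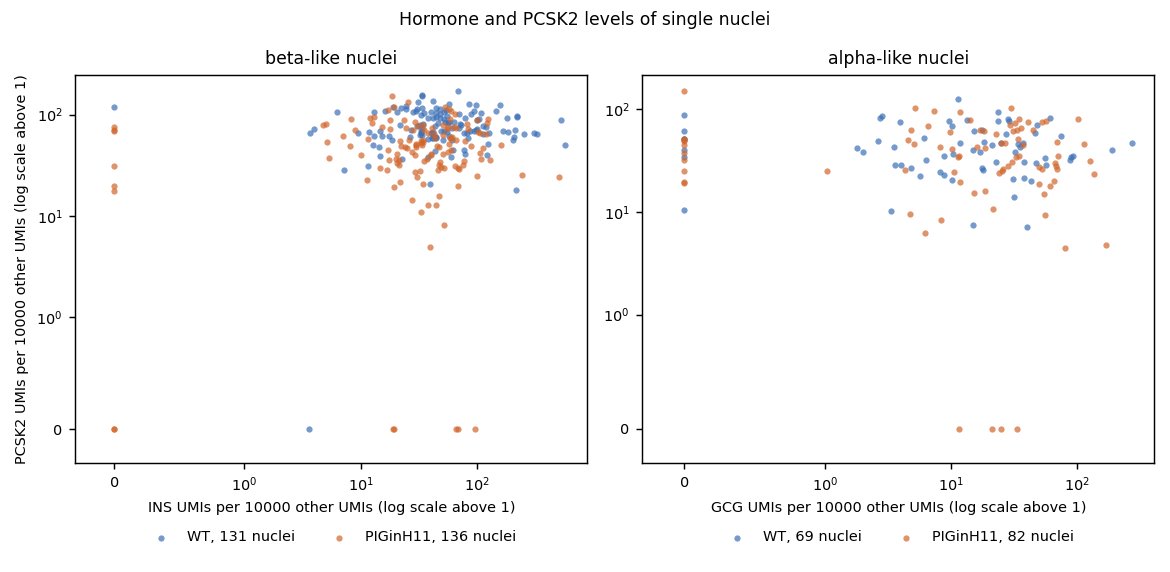
PCSK2 (vertical axis) against INS in beta-like nuclei (left) and GCG in alpha-like nuclei (right), both as UMIs per 10000 UMIs of other genes on axes that are logarithmic above 1, with 1 point per nucleus, WT in blue and PIGinH11 in orange. PCSK2 does not follow either hormone across nuclei, with rho of −0.01 and −0.02 for INS and −0.07 and −0.07 for GCG.

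PCSK1 gave 216 CPM in INS-high and 189 CPM in INS-low nuclei of the WT beta-like class (log2 0.19, −0.35 to 0.75), and 294 and 185 CPM in PIGinH11 (0.67, 0.05 to 1.31). Whether the 2 libraries differed in this was not tested. CPE differed by 0.13 (−0.16 to 0.42) and 0.05 (−0.27 to 0.37). CHGA differed by −0.19 (−0.59 to 0.22) in WT and 0.31 (−0.05 to 0.67) in PIGinH11, and its rho with INS was −0.01 and 0.26. Among the genes found in at least 20% of the nuclei (3368 in WT and 2254 in PIGinH11), this rho stood at percentiles 22.7 and 99.6. The rho of PCSK1 stood at percentiles 56.7 and 90.3, and that of CPE at 63.6 and 84.7. SCG2 could be compared in WT, at 82.3 and 43.3 CPM (0.93, −0.12 to 2.08).

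Alpha-like nuclei gave a like picture for PCSK2 and GCG. In WT GCG-high nuclei held 6279 CPM of GCG and GCG-low nuclei 651 CPM, while PCSK2 was 4462 and 4867 CPM (log2 −0.13, −0.28 to 0.03). In PIGinH11 GCG was 5476 and 845 CPM, while PCSK2 was 4191 and 4110 CPM (0.03, −0.15 to 0.21). CPE differed by 0.12 and 0.16, with intervals that held 0.

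Delta-like nuclei were numerous enough in PIGinH11. There SST-high nuclei held 3870 CPM of SST and SST-low nuclei 254 CPM, and CPE was 851 against 438 CPM (log2 0.96, 0.33 to 1.62) and CHGA 791 against 480 CPM (0.72, 0.10 to 1.36). Spearman's rho with SST over the 69 nuclei was 0.21 for CPE and 0.13 for CHGA. These stood at percentiles 83.5 and 61.8 of the 1874 genes found in at least 20% of the nuclei, whose median was 0.09. PCSK2 was 4086 against 3786 CPM (0.11, −0.13 to 0.35), and PCSK1 rested on 10 and 12 UMIs. INS was 779 against 283 CPM (1.46, 0.72 to 2.26), of which 3 nuclei of the class held most. Acinar markers made 3882 and 3447 CPM in SST-high and SST-low nuclei.

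In PIGinH11 gamma-like nuclei the split set the 23 nuclei with a PPY UMI against the 26 without. PCSK2 was 2691 against 4192 CPM (log2 −0.64, −0.98 to −0.30), and with nuclei of at least 1000 UMIs thinned to 1000 the difference was −0.13 (−0.79 to 0.51). INS made 98 UMIs in the PPY-high and 4 in the PPY-low nuclei, again with 93 of the 102 in 3 nuclei.

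**Figure D5:**
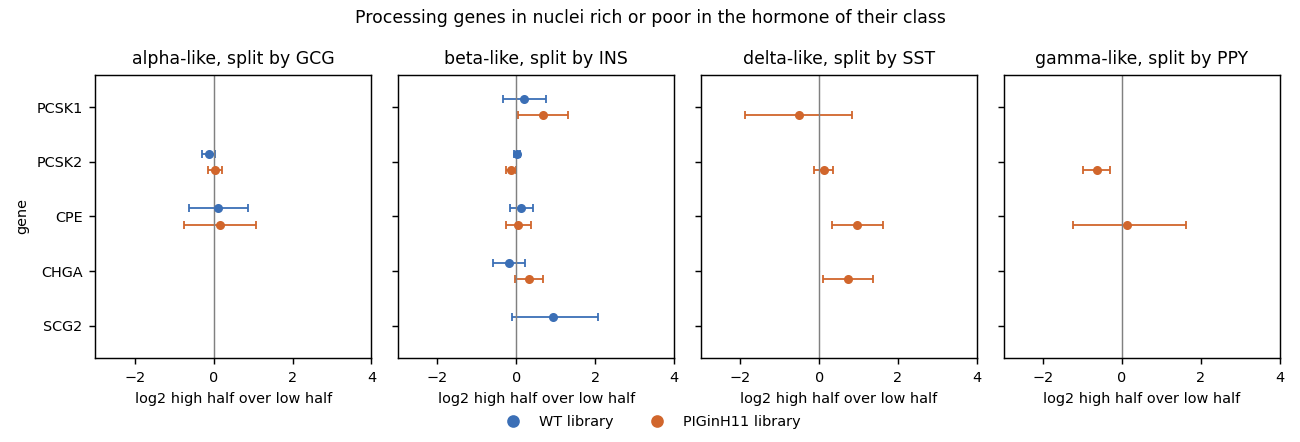
Log2 ratio of hormone-high over hormone-low nuclei (horizontal axis) for the 5 processing and granule genes in the 4 endocrine classes, with WT in blue, PIGinH11 in orange and exact conditional binomial 95% intervals for counting error; genes with fewer than 20 UMIs are left out, and so are WT delta-like and gamma-like nuclei, which were too few to split. PCSK2 lies at 0.02 and −0.13 in beta-like nuclei, and CPE (0.96) and CHGA (0.72) lie to the right of 0 in PIGinH11 delta-like nuclei.

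Other genes of prohormone maturation were taken from a list of 12. In beta-like nuclei 7 were measured, and 0 were past 2-fold in either direction, beside 6% of all genes lower and 6.93% higher. The 6 that reached 20 UMIs in both libraries had a median log2 ratio of −0.19. ERO1B, an oxidase that supplies disulphide bonds in the endoplasmic reticulum, was 1207 CPM in WT and 645 CPM in PIGinH11 (log2 −0.90, −1.11 to −0.70). Beta-like nuclei held 745 of its 37544 UMIs in retained WT nuclei and 258 of 15561 in PIGinH11. The part of free RNA in its values was not tested. SCG5, the 7B2 chaperone of PC2, was 233 and 332 CPM (0.51, 0.16 to 0.86), and PAM, which amidates peptide ends, 607 and 817 CPM (0.43, 0.21 to 0.65). SCG5 resembled the convertases in being low in acinar-like nuclei (1.46 and 3.73 CPM), whereas PAM was widely found there (354 and 213 CPM).

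In alpha-like nuclei 1 of 5 genes of the same list was higher, beside 6.32% of all genes, and 0 were lower, beside 6.8%. It was PCSK5, a convertase of the same family (log2 1.02, 0.01 to 2.08). It rested on 14 and 24 alpha-like UMIs, of 3263 and 1695 in all retained nuclei of WT and PIGinH11. In delta-like nuclei 0 of 4 were past 2-fold, beside 6.45% of all genes lower and 12.3% higher. In gamma-like nuclei 1 of 2 was higher, beside 16.7% of all genes, and this was PAM (1.23, 0.25 to 2.36). Of the 5 signal peptidase subunits, 4 could be measured in beta-like nuclei and 2 in alpha-like nuclei, and 0 were past 2-fold in either direction, beside 6% and 6.93% of all genes lower and higher in the former and 6.8% and 6.32% in the latter.

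Of 9 further granule protein genes, 7 were measured in beta-like nuclei, of which 0 were at least 2-fold lower, beside 6% of all genes, and 2 higher, beside 6.93%. The 6 that reached 20 UMIs in both libraries had a median log2 ratio of 0.20. The 2 were PTPRN, a granule membrane protein known as an islet autoantigen, with 19 UMIs in WT and 41 in PIGinH11 (log2 1.74, 0.92 to 2.60), and HID1, a protein of granule formation at the Golgi, with 32 and 48 UMIs (1.21, 0.54 to 1.90). HID1 was widely found outside the islet, with 3811 and 2006 UMIs in all retained nuclei of WT and PIGinH11. PTPRN2, the paralogue of PTPRN, was 1992 and 3267 CPM (0.71, 0.60 to 0.83) in beta-like nuclei, and it made 1268 and 3948 CPM in acinar-like nuclei. The part of free RNA in its endocrine values was not tested. SLC30A8, the zinc transporter of the insulin granule, was 857 and 732 CPM (−0.23, −0.44 to −0.02).

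In alpha-like nuclei SCG3 was the 1 of 7 granule genes lower, beside 6.8% of all genes (20 and 7 UMIs, log2 −1.28, −2.76 to 0.02). In delta-like nuclei CCDC186 (4 and 17 UMIs, 1.24, −0.37 to 3.27) and ICA1 (18 and 66 UMIs, 1.03, 0.26 to 1.87) were the 2 of 4 higher, beside 12.3% of all genes. Over all retained nuclei of WT and PIGinH11, CCDC186 had 4125 and 1946 UMIs and ICA1 19056 and 11301. The part of free RNA in their delta-like values was not tested. Of 2 measured in gamma-like nuclei 0 were past 2-fold, beside 9.12% of all genes lower and 16.7% higher. Within WT alpha-like nuclei SLC30A8 was 590 CPM in GCG-high and 260 CPM in GCG-low nuclei (1.18, 0.58 to 1.82), and in PIGinH11 it was 385 and 293 CPM (0.39, −0.27 to 1.07). In INS-high beta-like nuclei ERO1B was higher by 0.25 (0.04 to 0.47) in WT, while in PIGinH11 the difference was −0.29 with an interval that held 0 (−0.66 to 0.07). PTPRN2 was lower in INS-high nuclei, by a log2 difference of −0.43 (−0.59 to −0.26) in WT and −0.44 (−0.60 to −0.28) in PIGinH11, and its rho with INS stood at percentiles 0.475 and 0.71 among all genes found in at least 20% of the nuclei. CPD, a carboxypeptidase related to CPE, differed by 0.92 (0.27 to 1.62) and 0.49 (−0.33 to 1.35).

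Of 8 other islet peptide genes, 6 carried a symbol in the matrices. GHRL, which encodes ghrelin, was the 1 that reached 20 UMIs in an endocrine class, at 27.5 and 20.0 CPM in beta-like and 23.0 and 28.5 CPM in acinar-like nuclei. IAPP, the amyloid polypeptide co-stored with insulin, gave 1 UMI in all retained WT nuclei and 3 in PIGinH11. Reads were aligned to the pig genome and counted at the pig gene, so these counts give no level of the hIAPP transgene. Whether any of these UMIs came from the transgene was not tested. Why so few IAPP UMIs were found was not tested. ADCYAP1, CCK, GAL and NPY had between 0 and 7 UMIs in a library.

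The genes whose level across the 12 named classes of both libraries (24 points) was most like that of each of the 9 were found by Pearson's correlation of log2(CPM + 5). The points share 2 libraries and 2 depths, and the values are descriptions. INS was nearest to G6PC2 (0.88), PCSK1 (0.81) and SLC2A2 (0.76), GCG to IRX2 (0.91), GOPC (0.82) and NELL2 (0.81), SST to STK32A (0.86), DSCAM (0.83) and MDGA2 (0.80), and PPY to KCNH7 (0.87), KCNIP4 (0.84) and SIDT1 (0.80). G6PC2, SLC2A2, IRX2, MDGA2 and KCNIP4 were among the genes that named the classes.

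For the processing genes, PCSK1 was nearest to ARPP21 (0.92), GCGR (0.92) and GABRR2 (0.91), and PCSK2 to RAB3C (0.99), NOL4 (0.98) and CACNA1B (0.98), 3 genes that were naming markers of endocrine or alpha-like nuclei. CPE was nearest to CACNA1C (0.94), SNX32 (0.93) and ISL1 (0.92), CHGA to NECAB1 (0.94), FRMPD3 (0.93) and TMEM130 (0.93), and SCG2 to KCNJ11 (0.92), MAP6 (0.90) and MYT1L (0.89). PCSK1 was thus the 1 processing gene among the 3 nearest to a hormone.

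Over single nuclei the genes most correlated with a hormone differed between the libraries. For INS they were CLU (Spearman's rho 0.38), DCBLD2 (0.37) and TRANK1 (0.36) in 131 WT beta-like nuclei and MLXIPL (0.43), NOVA1 (0.31) and RGS2 (0.30) in 136 PIGinH11 nuclei. For GCG they were TANC2 (0.48), PKNOX1 (0.48) and RBBP8 (0.45) in 69 WT and SMYD3 (0.47), EIF4G3 (0.42) and AHCYL2 (0.41) in 82 PIGinH11 alpha-like nuclei. For SST they were ITGB8 (0.47), EWSR1 (0.46) and PPP6R3 (0.45) in 69 PIGinH11 delta-like nuclei, and for PPY SS18 (0.57), IQGAP2 (0.55) and ASCC3 (0.49) in 49 PIGinH11 gamma-like nuclei. None of the 3 nearest genes was the same in both libraries for INS or GCG, and none was a processing gene.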

How the data were processed

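Single nuclei of pancreas from 1 WT and 1 PIGinH11 pig were sequenced. The authors aligned reads to Sscrofa11.1 and deposited raw UMI counts per gene and barcode, made with Cell Ranger (3.1.0 in the methods, 5.0.0 in the matrix headers), before filtering in Seurat 3.1.1. The study's mapping summary assigns more reads to the transcriptome than to exons, so intron reads were counted. Counts are not per length, so genes were set against each other only as shares or ratios of UMIs within a class. Retained barcodes had 270 to 3700 genes, fewer than 13000 UMIs and under 10% mitochondrial UMIs, and the highest Scrublet scores (0.8% for each 1000 barcodes) were removed with scanpy 1.11.5. The methods print 1300 as the UMI limit, which was an alternative. Nuclei were clustered on 2000 variable genes without the members and pathway genes, with 30 components (20 for endocrine nuclei), Harmony, 20 neighbours and Louvain at resolution 1 (igraph 0.11.9), and named from markers, many of which the study chose on these libraries.

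UMIs were summed per class and library and scaled to CPM. Exact 95% intervals were Poisson for sums, Clopper–Pearson for shares and conditional binomial for ratios (scipy 1.17.1), and a sum of 0 is given with the level of 3 UMIs. With 1 library per group there was no test. The genes named were the 9 members, the genes of 4 pathway lists, and the 3 genes most like each member or hormone. The members and lists were chosen with earlier results of these data known. The ratio and interval steps were tested on simulated class sums with Poisson counting error and known fold changes. Such sums lack the gathering of UMIs in single nuclei seen here, and clustering and naming were not simulated. The alternatives were no doublet removal, other limits on UMIs and genes, no Harmony, resolution 2, members among the clustering genes, assignment by hormone, other scalings and denominators, means over nuclei, thinning, and subtraction of free RNA. Coordinates are from the RefSeq annotation of Sscrofa11.1.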

Additional observations from a re-analysis of the deposited data

Results flagged for a closer look

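INS differed between the libraries in opposite directions in different classes, which was not tested. Its log2 ratio of PIGinH11 over WT was −0.75 in beta-like and −0.99 in alpha-like nuclei and 3.75 in gamma-like nuclei, where WT held 3 INS UMIs and 3 nuclei held 93 of the 102 PIGinH11 UMIs.

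PPY also differed in opposite directions, at 2.41 in alpha-like and −1.01 in gamma-like nuclei, and this difference was not tested. Both values changed sign without the richest nucleus of each library. In alpha-like nuclei this left 3 PPY UMIs in WT and 1 in PIGinH11, too few to set a direction.

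INS was also found in barcodes that the limits on genes and UMIs removed, at 915 CPM (6032 UMIs) in 429 WT and 924 CPM (689 UMIs) in 53 PIGinH11 barcodes, compared with 341 and 198 CPM over all retained nuclei. Without these limits the beta-like classes held 153 and 142 nuclei.

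CHGA was found in endocrine nuclei outside the named classes. In cluster 7, which no marker list named, it stood at 1714 CPM (62 UMIs in 10 nuclei) in WT and 745 CPM (21 UMIs in 28 nuclei) in PIGinH11. CHGB, a related granin, stood at 1217 and 1242 CPM there, compared with 14.6 and 15.0 CPM in beta-like nuclei. The PIGinH11 UMIs lay in few nuclei, those of CHGB in 2 of 28 (22 of 35 in 1) and those of CHGA in 3 (10 of 21 in 1), whereas each was found in 7 of the 10 WT nuclei. PCSK2 in the cluster was 1051 and 639 CPM, below each named endocrine class.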

How the results depend on the processing

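No paired analysis was possible because each group has 1 library, so the groups share fewer than 2 replicate numbers. Of 404 values recomputed for 58 results, 324 moved by less than the counting interval and 72 moved by more. The percentages of genes past 2-fold, which are among these, have no such interval and were judged by a fixed ratio to the main value. A further 8 changed sign where the main interval left out 0. Sign changes of results whose main interval held 0 are counted among the 324 and the 72, and causes were not tested. INS in beta-like nuclei stayed lower in PIGinH11 in all, at −0.95 with the UMI limit of 1300, −0.93 without upper limits, −0.85 with median-of-ratios scaling, −0.63 as a mean over nuclei, −0.60 thinned to 500 UMIs, and −0.83 and −0.29 in endocrine clusters 1 and 5 alone. Other ratios in beta-like nuclei ran from 0.55 to 2.21 for CHGA and from −1.79 to 0.82 for PCSK1 over the alternatives. They ran from −0.77 to 1.93 for SCG2 and from −2.12 to 1.67 for GCG. Whether these genes lay past 2-fold there therefore depended on the setting. PCSK2 there was −0.17 at the limit of 1300, −0.70 with median-of-ratios scaling and −0.35 in cluster 5, and CPE was −0.17 at the limit of 1300, opposite to its main direction. That limit left 5 WT and 40 PIGinH11 beta-like nuclei and no alpha-like nuclei, and gave 2.35 for SST in delta-like nuclei, and −0.020 for INS and 0.39 for PPY in gamma-like nuclei, both opposite to their main direction. GCG in alpha-like nuclei was −0.50 without doublet removal, −0.46 without upper limits, 0.16 as a mean over nuclei, 0.15 when thinned and −0.050 without the richest nuclei, and PPY there was −1.35 without the richest nuclei. PPY in gamma-like nuclei was 0.038 with nuclei assigned by hormone, −0.68 with median-of-ratios scaling, −1.30 as a mean over nuclei, −1.71 when thinned and 0.89 without the richest nuclei. Without the minimum of 20 UMIs, the percentages of genes at least 2-fold lower and higher were 23.3 and 25.8 in alpha-like, 19.6 and 23.8 in beta-like, 18.5 and 37.8 in delta-like and 22.2 and 48 in gamma-like nuclei. The PCSK2 difference between INS-high and INS-low nuclei in WT was 0.11 when thinned to 1000 UMIs and −0.077 without doublet removal. Shares of nuclei with a UMI, thinned to 500 UMIs, were 86.3% and 76.5% for INS in beta-like, 49.3% and 69.5% for GCG in alpha-like, 40% and 34.8% for SST in delta-like and, in PIGinH11, 30.6% for PPY in gamma-like nuclei. Without doublet removal, GCG was seen in 61.8% of PIGinH11 alpha-like and PPY in 100% of WT gamma-like nuclei. Leaving out the richest nuclei, the upper limits or a beta-like cluster was chosen after seeing the data. Depth limits genes such as PCSK1 and SCG2, of which the median nucleus of each named endocrine class held 0 UMIs.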

Other observations

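TH, which encodes tyrosine hydroxylase, the first enzyme of catecholamine synthesis, lies next to INS (chromosome 2, 1499628 to 1506180, 1576 bases past the end of INS), and was chosen after its values were seen. It had 106 UMIs in PIGinH11 beta-like nuclei and 2 in WT. The 106 UMIs lay in 7 of 136 nuclei, with 1 to 35 UMIs each and a median of 12, and no TH UMI was found in alpha-like, delta-like or gamma-like nuclei of either library. INS was 4503 CPM in the 7 nuclei and 5086 CPM in the other 129, and the median depth was 7281 and 2073 UMIs.

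The unnamed endocrine nuclei (45 WT and 188 PIGinH11) held 2345 and 400.3 CPM of INS, 497 and 539 CPM of GCG and 2237 and 1205 CPM of PCSK2, each below the level of the class known for that gene. Of the 349 WT INS UMIs, 238 lay in the 10 nuclei of cluster 7 (6581 CPM), 123 of them in 1 nucleus, and INS stood at 984 CPM in the 34 WT nuclei of cluster 2. Their acinar markers made 6571 and 10926 CPM, and their median depth was 2082 and 775.5 UMIs.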
